A study of Mus musculus with 4 samples.

Results

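Integrins are matrix receptors made of an alpha and a beta subunit. In a muscle fiber they stand in costameres, the rib-like sites that tie the contractile lattice through the membrane to the basement membrane, beside the dystrophin complex that *mdx* mice lack. Talins and kindlins bind the tail of the beta subunit, vinculin links talin to actin, and integrin-linked kinase (ILK) forms a complex with a PINCH and a parvin protein at the same tail. The 10 genes described here, of 24054 gene symbols in the table, are *Itga7*, *Itga5* and *Itgb1* (integrin subunits), *Tln1*, *Tln2* and *Vcl* (talins and vinculin), and *Ilk*, *Lims1*, *Parva* and *Fermt2* (ILK, PINCH1, alpha-parvin and kindlin-2). They were selected by gene symbol, and all 10 were found and passed the filter on low counts.

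Gene expression was measured by RNA-seq of the soleus, a slow hindlimb muscle, in 2 *mdx* mice given mouse cardiosphere-derived cells (mCDCs) and 2 given vehicle. All mice were female, carried the *mdx* mutation of the dystrophin gene, were 8 weeks old at the start and received 1 femoral vein infusion per month until the 12-month endpoint. The mCDCs were cardiac stromal cells at passage 5, grown from a heart of the strain without the mutation, and vehicle was the culture medium in which the cells were suspended. Untreated mice and mice without the mutation were not analysed here, and the labels do not say that mice were pooled.

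The libraries held between 22481391 and 27187425 expected counts. Skeletal muscle fiber markers were present in each library, and their summed level lay between 127546 and 139434 CPM (counts scaled by the effective library size). Vehicle replicate 2 stood apart in markers of other cells. Its summed level of 7 endothelial markers was 250.4 CPM, against 109 to 139 CPM in the other 3 libraries, and that of 8 fibroblast markers was 590.5 CPM against 326 to 372 CPM. In bulk muscle, fewer cells of a type and less RNA per cell cannot be told apart.

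mCDC and vehicle muscles were compared to find which genes differed after a year of infusions. To be called, a gene had to differ by more than 1.5-fold and have an unadjusted p below 0.05 in edgeR's quasi-likelihood test. *Itga5* was called higher in mCDC muscles, and the other 9 genes were not called. Of the 13652 genes tested, 1.26% were called higher and 2.74% lower, beside 1 and 0 of the 10 members. No gene in the table had an adjusted p under 0.05 with this test. An unadjusted p under 0.05 was reached by 947 genes (6.94%; 2.85% higher and 4.09% lower), of which 3 were members: *Itga5* and *Itga7*, higher in mCDC muscles, and *Parva*, lower. With DESeq2 53 genes had an adjusted p under 0.05, and with edgeR's likelihood ratio test 66. The median log2 fold change of the 10 members was 0.05, and that of all genes tested was -0.01. Both mCDC libraries lay above both vehicle libraries for 2 members and below for 2, against 19.2% and 19.4% of all genes. For 1 gene in 2 muscles against 2, the smallest two-sided p of an exact permutation test is 0.333. Nothing in the labels says how the replicates of a group differ beyond their number, so p-values measure the spread between these libraries.

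**Figure D1:**
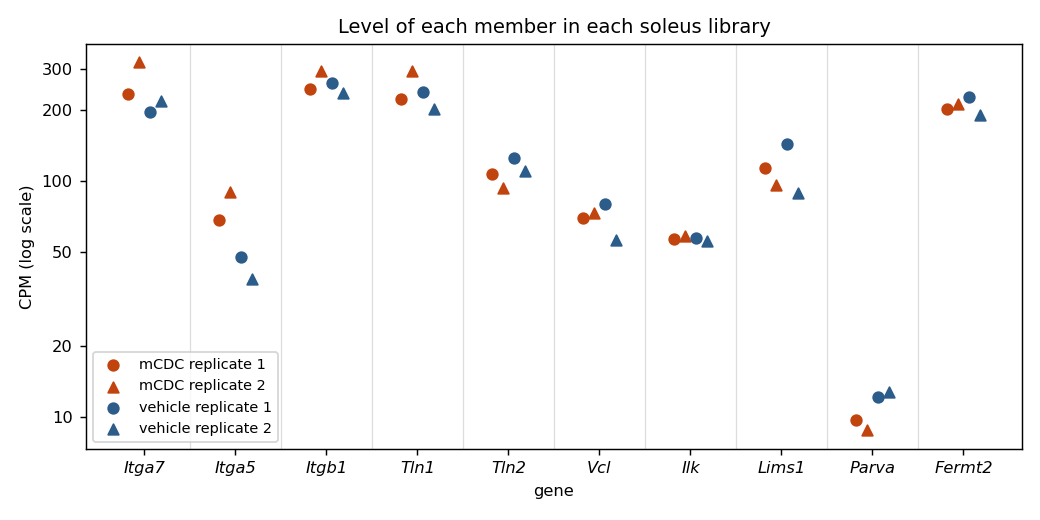
Level of each of the 10 genes in each library, in CPM on a log axis, with mCDC libraries in orange, vehicle libraries in blue, and the replicate number shown by the shape of the point. The mCDC and vehicle points of *Itga5* and *Itga7* (mCDC above) and of *Tln2* and *Parva* (mCDC below) do not overlap, and those of the other 6 genes do.

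*Itga5* encodes the alpha 5 subunit, which with beta 1 forms the classical fibronectin receptor. The gene lies on chromosome 15 from 103344286 to 103366763 on the minus strand (GRCm38), and its longest transcript has 4.42 kb. *Itga5* stood at 68.4 CPM in mCDC replicate 1, 89.7 CPM in mCDC replicate 2, 47.8 CPM in vehicle replicate 1 and 38.7 CPM in vehicle replicate 2. Both mCDC libraries were above both vehicle libraries, and the gap of the groups was wider than the difference within the vehicle group and slightly narrower than that within the mCDC group. The means were 79.0 ± 15.1 CPM (SD, n = 2) and 43.2 ± 6.41 CPM (SD, n = 2). *Itga5* was thus 1.83-fold higher in mCDC muscles (95% interval 1.37 to 2.43), a log2 fold change of 0.87 with a standard error of 0.18 (edgeR's quasi-likelihood test, unadjusted p = 0.0013, adjusted p = 0.487). It stood at rank 36 of the 13652 genes tested when ordered by p. With DESeq2 its adjusted p was 0.0135, over the alternatives it ran from 0.0135 to 0.906, and *Itga5* was called in each of the 12 alternatives run.

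The 250 bases before the start of *Itga5* are shown because it is the only member that was called, and those of its partner *Itgb1*, which was not called, are shown for comparison. Both are from RefSeq on GRCm38.p6 and are written 5′ to 3′ on the strand of the gene, with capitals marking GC boxes (GGGCGG on either strand). The *Itga5* window is chr15:103366792-103367041 on the minus strand and the *Itgb1* window is chr8:128685404-128685653 on the plus strand.
Itga5: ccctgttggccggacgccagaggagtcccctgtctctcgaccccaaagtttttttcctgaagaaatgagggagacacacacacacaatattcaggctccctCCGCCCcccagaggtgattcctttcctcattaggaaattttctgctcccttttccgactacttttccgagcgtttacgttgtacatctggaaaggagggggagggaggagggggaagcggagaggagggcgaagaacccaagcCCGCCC
Itgb1: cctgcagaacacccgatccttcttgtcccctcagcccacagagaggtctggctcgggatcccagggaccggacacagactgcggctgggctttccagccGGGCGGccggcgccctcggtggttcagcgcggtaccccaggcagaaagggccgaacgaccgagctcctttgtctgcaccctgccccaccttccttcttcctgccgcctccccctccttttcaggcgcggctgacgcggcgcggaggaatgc
The *Itga5* window held 2 GC boxes, which began 149 and 6 bases before the start, and 1 E-box (CANNTG) that began 66 bases before it. The *Itgb1* window held 1 GC box and no E-box. Neither held an AP-1 match (TGANTCA) or a CArG match, the motif of serum response factor. Over 32851 windows of the same length, 32.7% held a GC box, 66.2% an E-box, 6.75% an AP-1 match and 1.47% a CArG match on either strand. Of the 10 windows listed for 7 of the members, 6 held a GC box, 6 an E-box, 0 an AP-1 match and 2 a CArG match, the latter in *Vcl* and *Fermt2*. A match is a stretch of letters and not a shown binding site.

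*Itga7* encodes the alpha 7 subunit, the main laminin-binding integrin of adult muscle fibers, and lies on chromosome 10 from 128933818 to 128958282 on the plus strand (GRCm38). Its level was 234 CPM in mCDC replicate 1, 319 CPM in mCDC replicate 2, 196 CPM in vehicle replicate 1 and 218 CPM in vehicle replicate 2. Pairs of values that follow are in the order of replicates 1 and 2. The groups did not overlap, but mCDC replicate 1 was nearer to vehicle replicate 2 than to the other mCDC library. The log2 fold change was 0.42 (standard error 0.17, edgeR's quasi-likelihood test, unadjusted p = 0.0414, adjusted p = 0.713), a 1.33-fold difference (95% interval 1.01 to 1.76) that did not reach 1.5-fold. The value rests on mCDC replicate 2: it was 0.18 without that library, and it was 0.62 and called without mCDC replicate 1.

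*Itgb1* encodes beta 1, the partner of both alpha subunits, and lies on chromosome 8 from 128685654 to 128733200 on the plus strand (GRCm38). It had 246 and 294 CPM with mCDCs, against 261 and 237 CPM with vehicle, and the groups overlapped. The log2 fold change was 0.12, with a 95% interval from -0.21 to 0.45. The counts of an alpha subunit over those of *Itgb1* in the same library do not depend on library scaling, and were set out after the counts had been seen. For *Itga5* this ratio was 0.278 and 0.305 with mCDCs, against 0.183 and 0.163 with vehicle. For *Itga7* it was 0.952 and 1.08 with mCDCs, against 0.751 and 0.922 with vehicle. Both ratios were higher in each mCDC library than in each vehicle library, with a mean ratio 1.68 times as high for *Itga5* and 1.22 times as high for *Itga7*. The ratio of *Itga5* to *Itga7* itself was 0.292 and 0.282 with mCDCs, against 0.244 and 0.177 with vehicle, so *Itga5* was also the higher in mCDC muscles relative to *Itga7*. These ratios are descriptions, since 2 libraries against 2 give no exact p below 0.333.

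**Figure D2:**
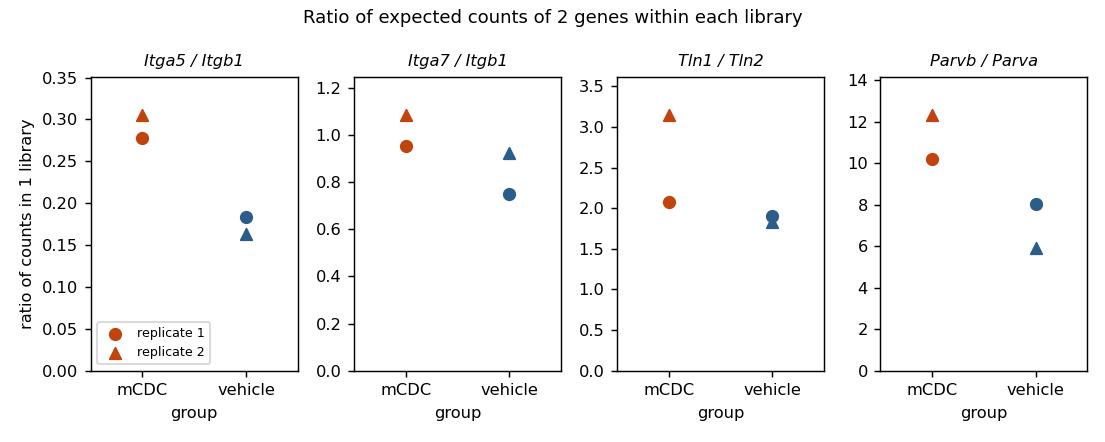
Ratio of the counts of 2 genes within each library, with 1 panel per pair, the group on the horizontal axis and the unscaled ratio of expected counts on a vertical axis that starts at 0. In each of the 4 pairs shown both mCDC libraries (orange) lie above both vehicle libraries (blue), by the widest margin relative to the spread for *Itga5* over *Itgb1*. The pairs were chosen after their values were seen. Other ratios taken, *Vcl* over *Tln1*, *Lims1* over *Ilk*, *Lims2* over *Lims1* and *Fermt2* over *Itgb1*, overlapped between the groups. *Parva* over *Ilk* was lower in both mCDC libraries.

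Talins activate integrins by binding the beta tail and carry force to actin. *Tln1*, the widely expressed talin, lies on chromosome 4 from 43531519 to 43562691 on the minus strand (GRCm38), and *Tln2*, the talin of mature striated muscle, on chromosome 9 from 67217087 to 67559703 on the minus strand. *Tln1* had 223 and 293 CPM with mCDCs, against 239.7 and 203 CPM with vehicle. Its groups overlapped, and mCDC replicate 2 was the highest. *Tln2* had 107 and 93.2 CPM with mCDCs, against 126 and 111 CPM with vehicle. Both mCDC libraries were below both vehicle libraries for *Tln2*, by less than the difference within either group. The log2 fold changes were 0.22 for *Tln1* (95% interval -0.17 to 0.61) and -0.24 for *Tln2* (95% interval -0.57 to 0.09), and neither was called. The ratio of *Tln1* to *Tln2* counts was 2.08 and 3.14 with mCDCs, against 1.90 and 1.83 with vehicle. It was higher in both mCDC libraries, and mCDC replicate 1 lay closer to the vehicle libraries than to mCDC replicate 2. The transcripts of the 2 talins share no 31-base stretch, so reads of one could not have matched the other exactly over that length.

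*Vcl* encodes vinculin, which binds talin under tension and reinforces its link to actin, and lies on chromosome 14 from 20929398 to 21033676 on the plus strand (GRCm38). It had 69.6 and 73.6 CPM with mCDCs, against 80.3 and 56.2 CPM with vehicle. The vehicle libraries were the highest and the lowest of the 4, 1.43-fold apart, with the mCDC libraries between them. Its log2 fold change was 0.07 (95% interval -0.35 to 0.49). It was 0.35 without vehicle replicate 1 and -0.17 without vehicle replicate 2. Of the 31-base words of *Vcl* transcripts, 25.3% also occur on the opposite strand in *Ap3m1*, which had 29.1 and 29.4 CPM with mCDCs, against 33.2 and 26.6 CPM with vehicle. Whether the counting used strand is not given in the sources used here.

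ILK is a pseudokinase that serves as a scaffold, and with PINCH1 and alpha-parvin it forms a complex that couples beta integrins to actin. *Ilk* lies on chromosome 7 from 105736592 to 105742925 on the plus strand (GRCm38). It had 56.8 and 58.7 CPM with mCDCs, against 57.4 and 55.7 CPM with vehicle. All 4 values lay within 3 CPM, the narrowest spread among the members. The log2 fold change was 0.03, and its 95% interval, -0.27 to 0.33, holds no 1.5-fold difference in either direction. The *Ilk* count is uncertain in another way, because 66.0% of the 31-base words of its transcripts occur on the opposite strand in *Taf10*, and 15.5% occur in other genes on the same strand. *Taf10* had 58.4 and 68.2 CPM with mCDCs, against 54.4 and 61.7 CPM with vehicle.

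*Lims1*, the gene of PINCH1, lies on chromosome 10 from 58323466 to 58424691 on the plus strand (GRCm38). It had 114 and 96.0 CPM with mCDCs, against 144 and 89.6 CPM with vehicle. Its vehicle libraries differed more from each other than those of any other member, and they enclosed the mCDC libraries. Its log2 fold change was -0.15 (95% interval -0.66 to 0.35), and it was 0.23 without vehicle replicate 1 and -0.46 without vehicle replicate 2.

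*Parva*, the gene of alpha-parvin, lies on chromosome 7 from 112427505 to 112591692 on the plus strand (GRCm38). It had 9.73 and 8.82 CPM with mCDCs, against 12.2 and 12.9 CPM with vehicle. Both mCDC libraries were below both vehicle libraries, by more than the difference within either group. The log2 fold change was -0.44 (standard error 0.18, edgeR's quasi-likelihood test, unadjusted p = 0.0399, adjusted p = 0.713), a difference under 1.5-fold that was not called. Its direction held in each of the 12 alternatives, with log2 fold changes from -0.51 to -0.36 and unadjusted p from 0.0347 to 0.209. *Parva* had the fewest reads of the members, with 193 to 354 expected counts per library, against 1064 to 6973 for the other 9. Its paralog *Parvb*, the gene of beta-parvin, had 99.1 and 108 CPM with mCDCs, against 98.3 and 76.4 CPM with vehicle, a log2 fold change of 0.25 that was not called. The ratio of *Parvb* to *Parva* counts was 10.2 and 12.3 with mCDCs, against 8.02 and 5.94 with vehicle.

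*Fermt2* encodes kindlin-2, which binds the beta tail beside talin, and lies on chromosome 14 from 45458795 to 45530118 on the minus strand (GRCm38). It had 202 and 212 CPM with mCDCs, against 228 and 189.8 CPM with vehicle, and the vehicle libraries enclosed the mCDC libraries. Its log2 fold change was -0.01 (95% interval -0.34 to 0.31). For 7 of the 10 members the 95% interval of the difference holds 0.

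**Figure D3:**
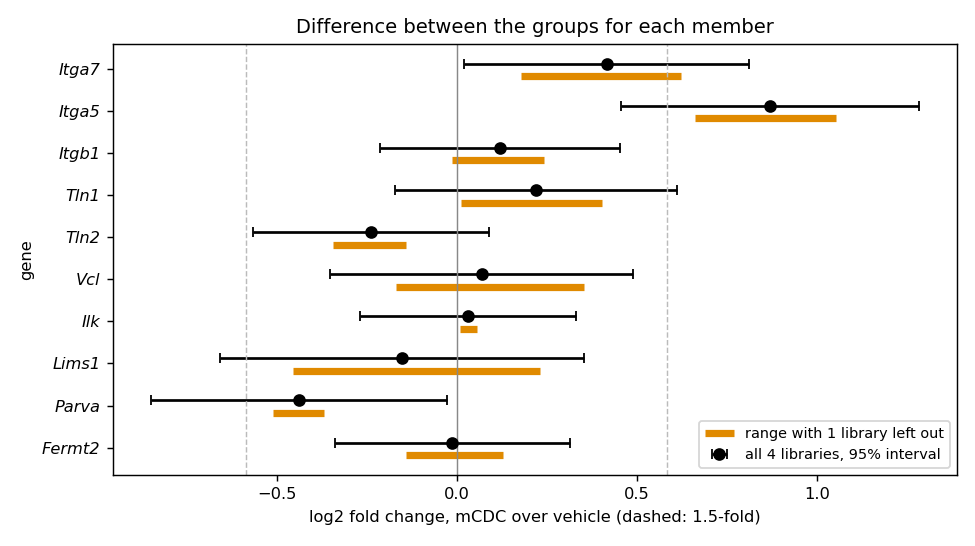
Log2 fold change of each gene, mCDC over vehicle, with its 95% interval from edgeR's quasi-likelihood test (black points and bars), and the range of the value when each library is left out in turn (orange bars). The interval of *Itga5* lies between 0.45 and 1.28, *Itga7* and *Parva* also lie to one side of 0, and the bars of *Itgb1*, *Vcl*, *Lims1* and *Fermt2* cross 0 when 1 library is left out.

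The library with the highest level differed between members. mCDC replicate 2 was the highest library for 5 members (*Itga7*, *Itga5*, *Itgb1*, *Tln1* and *Ilk*) and the lowest for *Tln2* and *Parva*. Vehicle replicate 1 was the highest for *Tln2*, *Vcl*, *Lims1* and *Fermt2*. Vehicle replicate 2 was the lowest for 7 of the 10. Summed over the members, the level was 1332 and 1537 CPM with mCDCs against 1391 and 1212 CPM with vehicle, and the groups overlapped. For the 3 integrin subunits the sum was 549 and 702 CPM against 504 and 494 CPM, without overlap. For ILK, PINCH1, alpha-parvin and kindlin-2 it was 383 and 375 CPM against 441 and 348 CPM.

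Levels of different genes were compared per kilobase of transcript. With the longest transcript of each gene, the order of the mean over the 4 libraries was *Itgb1* at 68.0 ± 6.59 CPM per kb (SD, n = 4), *Fermt2* at 63.1 ± 4.86, *Itga7* at 60.1 ± 13.3, *Tln1* at 28.6 ± 4.57, *Lims1* at 25.6 ± 5.59, *Ilk* at 25.1 ± 0.54, *Itga5* at 13.8 ± 5.14, *Vcl* at 13.3 ± 1.93, *Tln2* at 9.01 ± 1.11 and *Parva* at 1.86 ± 0.333, in the same unit. The ranges of *Itgb1*, *Fermt2* and *Itga7* overlapped each other in turn, as did those of *Tln1*, *Lims1* and *Ilk*, and those of *Itga5* and *Vcl*. There was no overlap between *Itga7* and *Tln1*, between *Ilk* and *Itga5*, between *Vcl* and *Tln2*, or between *Tln2* and *Parva*. The order of some neighbours differed between libraries. *Itga5* was above *Vcl* in both mCDC libraries, with 15.5 and 20.3 CPM per kb of longest transcript against 13.2 and 14.0, and below it in both vehicle libraries, with 10.8 and 8.77 against 15.2 and 10.7. *Itga7* was above *Fermt2* in mCDC replicate 2 and below it in the other 3 libraries. The order also depends on the length used. With the mean length over all transcripts listed for a gene, which includes short fragments, the order began with *Fermt2* at 177 ± 13.7 CPM per kb (SD, n = 4), *Tln1* at 144 ± 23.1 and *Itgb1* at 128 ± 12.4, whose ranges overlapped each other in turn. *Parva* was last at 3.80 ± 0.68 CPM per kb (SD, n = 4), so its place did not depend on the length. The beta 1 gene was above both alpha genes per kilobase under either length in the mean over libraries.

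**Figure D4:**
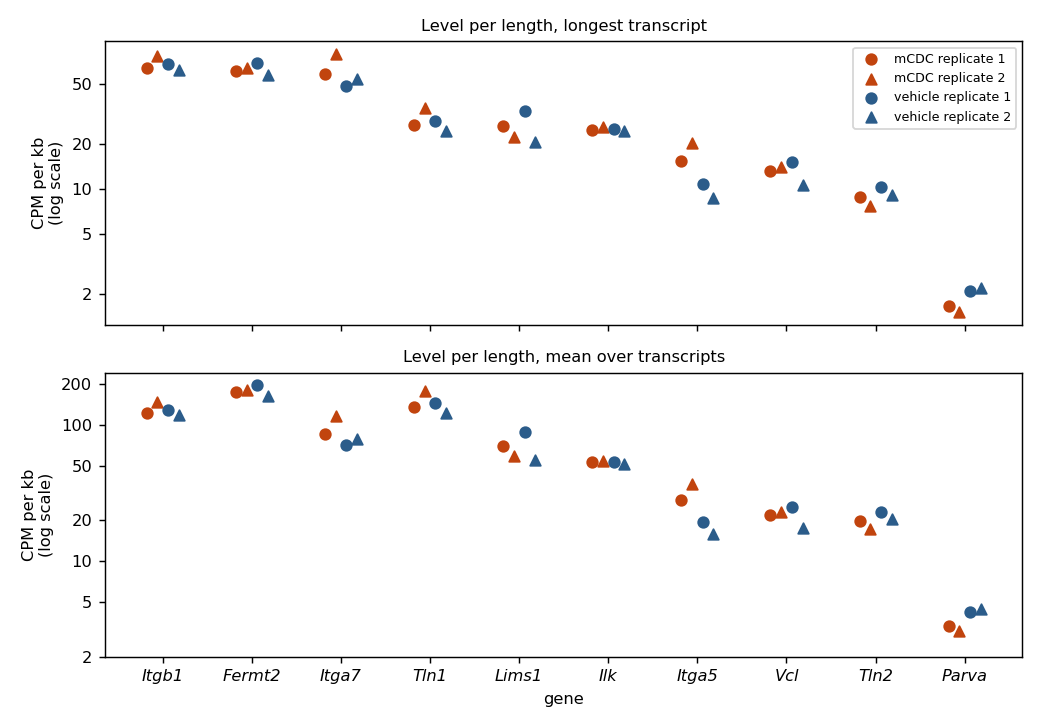
Level of each gene per kilobase of transcript, in CPM per kb on log axes, with 1 point per library (mCDC orange, vehicle blue) and genes ordered by the upper panel. The upper panel uses the longest transcript and the lower the mean length over transcripts; *Parva* is lowest in both, and *Tln1* moves from rank 4 to rank 2.

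Further genes of the pathway were read from lists of related genes. Of the 13 tested subunits among 15 other integrin genes, 0 were called higher and 1 lower, with a median log2 fold change of -0.24. It was nearer to 0 with any library left out, from -0.16 (vehicle replicate 1 omitted) to -0.095 (vehicle replicate 2 omitted), with -0.15 and -0.12 when mCDC replicates 1 and 2 were omitted, and -0.12 in the fit corrected for length and GC. *Itga6*, the alpha 6 laminin receptor subunit, had 9.39 and 8.54 CPM with mCDCs, against 10.5 and 17.9 CPM with vehicle, a log2 fold change of -0.66. Without vehicle replicate 2 it was -0.22 and was not called, and the call was also lost without mCDC replicate 2 (-0.59), with the length and GC trend removed (-0.62) and with the replicate number as a block (-0.61). Without mCDC replicate 1, 3 genes of the list were called lower, and 2 without vehicle replicate 1. The most abundant of the list, *Itgb5* and *Itgb6*, had log2 fold changes of -0.03 and -0.13.

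Of 8 tested paralogs and partners of the ILK complex and kindlin, none was called in either direction, and the median was 0.06, or -0.03 in the fit corrected for length and GC. *Parvb* and *Ilkap* were the most abundant of them. *Lims2*, the gene of PINCH2 and paralog of *Lims1*, had 14.8 and 9.31 CPM with mCDCs, against 12.8 and 30.4 CPM with vehicle. Vehicle replicate 2 stood above the other 3 libraries for *Lims2*, and the groups overlapped. Its log2 fold change of -0.84 (edgeR's quasi-likelihood test, unadjusted p = 0.062) was not called, but it was called lower in 5 of the 12 alternatives: with DESeq2, with edgeR's likelihood ratio test, in the fit corrected for length and GC, without mCDC replicate 1 and without vehicle replicate 1. Without vehicle replicate 2 it was -0.088. Of 12 genes that activate or restrain integrins, 0 were called higher, with a median of -0.07. *Itgb1bp2*, the gene of melusin, a muscle protein that binds the beta 1 tail, was the most abundant at 241 to 286 CPM and had a log2 fold change of -0.01. *Flna*, the gene of filamin A, had one of -0.14. None of 16 focal adhesion kinases and scaffolds was called, with a median of -0.02, though 1 was called higher without mCDC replicate 1 and 1 lower without vehicle replicate 1. The most abundant were the scaffold genes *Pxn* and *Git1*, at -0.09 and 0.12, and *Ptk2*, the gene of focal adhesion kinase, had -0.11. None of 17 actin linkers was called, with a median of 0.06 that was -0.015 in the fit corrected for length and GC, and 2 were called higher without mCDC replicate 1. Most abundant among the 17 were *Pdlim5* and *Tns1*, the gene of tensin 1. *Pdlim5* had 826 and 692 CPM with mCDCs, against 640.4 and 508 CPM with vehicle. Its log2 fold change was 0.40, and that of *Tns1* was 0.06.

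Of 18 tested genes of muscle costameres, 2 were called higher and 1 lower. *Flnc*, the gene of the muscle filamin, had 3987 and 7106 CPM with mCDCs, against 3486 and 2891 CPM with vehicle. *Csrp3*, the gene of muscle LIM protein, had 763 and 2045 CPM against 658 and 741 CPM. For both genes mCDC replicate 2 stood far above the other 3 libraries. Their log2 fold changes, 0.80 and 1.005, were 0.32 and 0.13 without mCDC replicate 2 and were then not called. *Flnc* was also not called without vehicle replicate 2, and *Csrp3* without either vehicle library, with DESeq2 or in the fit corrected for length and GC. *Synm*, the gene of the intermediate filament protein synemin, was called lower, with 344 and 299.8 CPM against 547 and 445 CPM. Its log2 fold change of -0.62 ran from -0.76 to -0.46 with each library left out, and it was not called without mCDC replicate 2, without vehicle replicate 1 or with the length and GC trend removed. The most abundant, *Des* (desmin) and *Actn2* (alpha-actinin-2), had log2 fold changes of 0.15 and 0.23. Transcripts of *Dmd*, which carry the *mdx* mutation, had 33.1 and 32.8 CPM with mCDCs, against 44.8 and 44.1 CPM with vehicle. Its log2 fold change of -0.43 did not reach 1.5-fold.

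Of 17 genes of laminins, fibronectin, collagens and related matrix proteins, 0 were called higher and 6 lower, and the median log2 fold change was -0.43. These were *Fn1* (fibronectin), *Agrn* (agrin), *Col6a1* and *Col6a2* (collagen VI), *Nid1* (nidogen 1) and *Lama4* (laminin alpha 4), with log2 fold changes from -0.72 for *Fn1* to -0.59 for *Agrn*. *Fn1*, the ligand gene of the receptor that *Itga5* forms, had 48.3 and 35.8 CPM with mCDCs, against 56.5 and 82.5 CPM with vehicle. Both mCDC libraries were below both vehicle libraries for *Fn1*, the opposite order to *Itga5*. The matrix calls rest on vehicle replicate 2, without which 0 of the 17 genes were called in either direction and the median was -0.19. Without vehicle replicate 1 there were 9 called lower (median -0.60), and without mCDC replicate 2 there were 2 (median -0.49). *Fn1* had -0.43 without it and -0.52 without mCDC replicate 2, and was called in neither case. The laminin genes of the adult basement membrane, *Lama2*, *Lamb2* and *Lamc1*, had log2 fold changes of -0.18, -0.07 and 0.02, and *Thbs4*, the gene of thrombospondin 4, had -0.43.

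**Figure D5:**
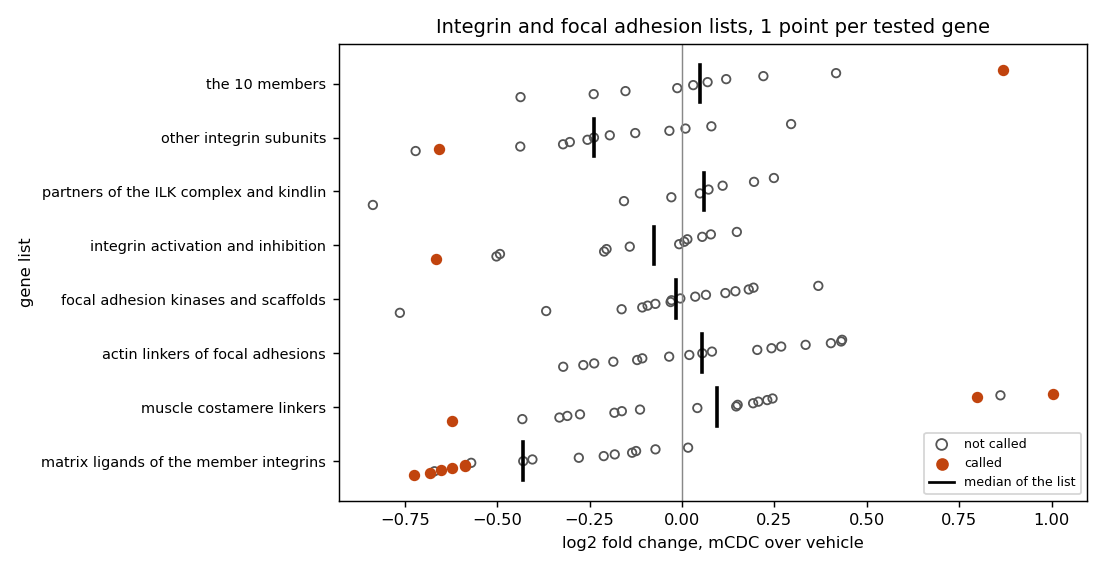
Log2 fold change, mCDC over vehicle, of each tested gene in the 10 members and in 7 lists of related genes, 1 point per gene, with called genes filled and the median of each list as a black bar. *Itga5* is the only filled point among the members, the 6 filled points of the matrix list lie between -0.72 and -0.59, and the medians of the other lists lie between -0.24 and 0.09.

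Among lists of markers of other cells, the summed level of satellite cell and myoblast markers did not overlap between the groups and was higher with mCDCs, as for *Itga5*. The sums of the tendon and adipocyte lists did not overlap either and were lower with mCDCs. The sums of the endothelial, fibroblast, macrophage, and smooth muscle and pericyte lists overlapped. Of 6 satellite cell and myoblast markers, *Myog*, *Myod1* and *Pax7* were called higher, and the sum was 221.9 and 224 CPM against 158 and 160.0 CPM. *Chrna1* made up the largest part of the sum, with 87.4 and 82.0 CPM against 75.6 and 66.7 CPM, and was not called. *Cdh15* and *Myf5* were not called either, with log2 fold changes of 0.22 and 0.03. *Pax7* added little to the sum, with 2.99 and 2.88 CPM against 1.87 and 1.60 CPM. With each library left out in turn 1 to 2 of the 6 were called higher. All 7 endothelial markers had log2 fold changes below 0, with *Cdh5* at -0.59 and *Pecam1* at -0.67, and none was called. The median of -0.59 turned to 0.13, with 1 called higher, without vehicle replicate 2, whereas without vehicle replicate 1 it was -1.05 and all 7 were called lower, and without mCDC replicate 1 it was -0.78 and 3 were called lower. Of 8 fibroblast markers 0 were called higher and 2 lower (*Lum* and *Pdgfra*), and their sum was 372 and 326 CPM against 342 and 590.5 CPM. Without vehicle replicate 2 none of the 8 was called, without vehicle replicate 1 all 8 were called lower, and without mCDC replicate 1 it was 4 of them. Of 8 macrophage markers, *Cd68* was called higher and *Csf1r* lower, and the sum was 46.7 and 52.0 CPM against 39.4 and 68.0 CPM. *Cd68* stood at 15.4 CPM in mCDC replicate 2 and at 2.71 to 4.15 CPM elsewhere, and its log2 fold change was 0.27 without that library. The call of *Cd68* was also lost without either vehicle library, and with DESeq2 none of the 8 was called. The markers called lower in the macrophage list numbered 0 to 3 with each library left out, the most without vehicle replicate 1. Of 8 markers of smooth muscle and pericytes, *Cspg4* was called higher and *Rgs5* lower, and the sum was 272 and 304 CPM against 216 and 278 CPM. Neither was called without mCDC replicate 2. *Cspg4* was also not called without either vehicle library or with the replicate number as a block, and *Rgs5* not in the fit corrected for length and GC, and 2 of the 8 were called lower without vehicle replicate 1. No marker of these lists was at 0 in a library. Vehicle replicate 2, the highest in endothelial and fibroblast markers, was the lowest in *Itga5*, which had a log2 fold change of 0.72 and was called without it. The part of any of these cells in the level of *Itga5* was not tested.

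The genes most like *Itga5* over the 4 libraries were named by the smallest root mean square difference of log2 CPM centred on each gene's mean. Among them were *Scx* (0.022), *Midn* (0.040), *Scml4* (0.057) and *Psat1* (0.067), in log2 units. *Scx*, the gene of a tendon transcription factor, had 40.4 and 55.1 CPM with mCDCs, against 29.2 and 23.4 CPM with vehicle. It had a log2 fold change of 0.86, a value that its choice by likeness to *Itga5* largely fixes. Other tendon markers did not share this direction, since *Tnmd*, *Fmod* and *Chad* were called lower and the median of the 6 tendon markers was -0.87. The likeness covers 4 libraries only.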

How the data were processed

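The authors aligned single-end reads to UCSC transcripts (Bowtie 2) and deposited the resulting RSEM expected counts by gene symbol, unscaled. The submitters' processing notes name Bowtie2 2.1.0, RSEM 1.2.15 and mm10. The paper's methods name the xGen kit and the labels a TruSeq Stranded kit. Expected counts were rounded, filtered with filterByExpr, scaled by trimmed mean of M-values and tested with edgeR 4.0.16 (quasi-likelihood, legacy = FALSE) in R 4.3.3. Standard errors were taken from the log2 fold change and its F statistic. CPM used unrounded counts; log2 CPM added a prior count of 2. Adjusted p-values are Benjamini-Hochberg over all genes tested.

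The members and lists were chosen with earlier results of these data known. Genes named were all members, called genes and the 2 most abundant genes of each list, cell type markers, *Dmd*, and the 5 genes closest to the member with the smallest p, apart from results not reported here. *Lims2*, *Ptk2*, *Lama2*, *Lamc1*, *Taf10*, *Ap3m1* and the pairs for count ratios were chosen after their values were seen. Alternatives were DESeq2 1.42.0, DESeq2-type size factors, edgeR's legacy form, 2 other filters, a replicate block, a fit with the trend on length and GC removed, leaving out each library, and, added after seeing the data, edgeR's likelihood ratio test. The procedure was tested on simulated data. Lengths and coordinates came from GENCODE M21 (GRCm38), in which 22750 of 24054 symbols were found by name and 934 by an older name.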

Additional observations from a re-analysis of the deposited data

How the results depend on the processing

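The 10 members gave 120 values over 12 alternatives, of which 113 kept their direction and their side of the threshold. *Itga5* was called in each. The direction turned for *Ilk* with the length and GC trend removed (-0.050), for *Fermt2* without mCDC replicate 1 (0.020) and without vehicle replicate 1 (0.13), for *Itgb1* without mCDC replicate 2 (-0.014), for *Lims1* without vehicle replicate 1 (0.23) and for *Vcl* without vehicle replicate 2 (-0.17), all as log2 fold changes of genes that were not called. With each library left out, log2 fold changes ran from -0.014 to 0.24 for *Itgb1*, -0.17 to 0.35 for *Vcl*, -0.46 to 0.23 for *Lims1* and -0.14 to 0.13 for *Fermt2*. *Itga7* was called without mCDC replicate 1. With each library left out in turn, the members called higher numbered 1 to 2, those called lower 0, and the median log2 fold change of the members ran from -0.066 to 0.213. Over all genes, 112 to 397 were then called higher and 236 to 834 lower. The share of calls that were higher was 31.5%, and it was 42.2% without mCDC replicate 1 and 24.7% without vehicle replicate 1. With the replicate number as a block, 172 genes were called higher and 308 lower, and *Itga5* had a log2 fold change of 0.86. Deviations from the group means correlated at -0.039 between mCDC replicate 1 and vehicle replicate 1. With 2 libraries per group, this value cannot exclude that the numbers pair the muscles. The matrix list had 2 genes called lower with the block or with the length and GC trend removed. The cause of these changes was not tested. With 2 libraries per group, no test for an outlying library could be run.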

Other observations

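The tendon, adipocyte, Schwann cell, red blood cell and fiber lists gave the following values. Of 6 tendon markers, *Scx* was called higher, while *Tnmd* (tenomodulin), *Fmod* (fibromodulin) and *Chad* (chondroadherin) were called lower, with log2 fold changes of -1.36, -0.97 and -1.02. *Fmod* and *Chad* were not called without mCDC replicate 1 or without vehicle replicate 1. The summed level of the list was 156 and 211 CPM with mCDCs against 213 and 232 CPM with vehicle. Of 5 adipocyte markers 0 were called, and their sum was 124 and 124 CPM against 142 and 204 CPM, most of it from *Fabp4*. The other 4, *Adipoq*, *Plin1*, *Cidec* and *Lep*, were highest in vehicle replicate 1 and lowest in vehicle replicate 2, as for *Plin1* with 5.11 and 0.728 CPM, while *Fabp4* was highest in vehicle replicate 2 with 199.9 CPM. Without vehicle replicate 1, 3 adipocyte markers were called higher and 1 lower (median 1.147), and without vehicle replicate 2, 4 were called lower (median -0.86). Of 6 Schwann cell markers 0 were called, and 3 were called lower without vehicle replicate 1, with sums of 62.5 and 64.3 CPM against 59.5 and 81.0 CPM. Of 5 red blood cell genes, *Hba-a2* was called lower with a log2 fold change of -1.04, and the sum was 269.9 and 279 CPM against 244 and 454 CPM. All 5 were called lower without vehicle replicate 1 (median -1.08), and without vehicle replicate 2 there was 1 called higher and 1 lower (median 0.26). None of 9 fiber markers was called, and *Myh7*, the slow myosin heavy chain, had a log2 fold change of 0.01.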
